A study of Mus musculus with 10 samples.

Results

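Fibroblasts sorted from healthy mammary glands were set against cells sorted from mammary tumours as cancer stem cells. The comparison rests on the 3 arrays titled COF (control fibroblasts) and the 2 arrays titled CSC (cancer stem cells), chosen by title, out of 10 arrays in the series. It covers 12394 genes, each read by the brightest of its probe sets that carry a single symbol, by mean over the 10 arrays. All mice were of strain FVB/N. The COF came from control glands of genotype WT, and the CSC from tumours of genotype WAPCre-DNbcatn;HGF. In that genotype the Wap promoter, which is active in the milk-secreting epithelium, drives the Cre recombinase. DNbcatn names an altered form of beta-catenin, the effector of Wnt signalling, and HGF is the ligand of the receptor Met, by a promoter the labels do not give. The 3 CAF arrays, of cancer-associated fibroblasts from tumours of that genotype, are set beside the comparison. The 2 TEC arrays, sorted from the same kind of tumour and described as TEFs in one label field, enter only the estimate of the spread. The sorting gate, the age of the mice and the number of mice behind an array were not given in the sources used here.

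Fibroblasts are the mesenchymal cells of connective tissue. They build the collagen and proteoglycan matrix, line vessels and ducts, and secrete growth factors that the epithelium reads through receptors. The mammary epithelium has an inner luminal layer, from which the milk-secreting cells arise, and an outer basal layer of contractile myoepithelial cells, both held together by E-cadherin and tight junctions. The study sorted tumour fibroblasts, tumour cells and control fibroblasts to find genes that differ between them and signals that may pass between fibroblasts and cancer stem cells. Setting control fibroblasts against the tumour cells asks which genes of a tumour fibroblast belong to fibroblasts in general. Cell type, genotype and healthy or tumour tissue all differ between COF and CSC and cannot be told apart. Nothing in the labels says that the arrays of a group came from separate mice, so the p-values measure the spread between these samples, which may be technical.

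Values are RMA expression values on a log2 scale, so a difference of 1 is a doubling, and a difference is always COF minus CSC with its standard error (SE) unless another pair is named. A gene passed when limma's moderated test gave an adjusted p under 0.05 over all 12394 genes. Of these, 8618 passed (69.5%). There were 4439 genes higher in COF (35.8%) and 4179 lower (33.7%), while 3776 did not pass. Centring each array on its own median over these genes shifted every difference by 0.24 and turned this split to 5769 higher and 3217 lower. With a size of at least 1 added, 1826 genes were higher in COF (14.7%) and 2068 lower (16.7%). For the comparisons set beside it, 8247 genes passed in CAF minus CSC (66.5%) and 4309 in CAF minus COF (34.8%). The 3 comparisons share arrays, so their values stand side by side and no agreement between them is read as a result. Most genes passed, so the count of a gene list is read against these shares and the list's median against the median of all genes, which was 0.04.

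Array medians over all probe sets lay between 6.89 and 7.02, and the lower quartile was 5.22 to 5.23 on the COF arrays and 5.05 to 5.08 on the CSC arrays. A value under it is called dim below, without the claim that the gene was silent. The SD of gene-by-gene differences was 0.18 between COF arrays 1 and 3, 0.36 between COF arrays 1 and 2, and 0.37 between the CSC arrays, against 1.47 to 1.59 for any COF array with any CSC array. The SD between COF arrays 2 and 3 was 0.26. In some contractile, milk and cell division genes, such as Acta2, Csn2 and Mki67, COF array 2 read highest, array 1 lowest and array 3 between. Their values are given below with every array shown. The spread is pooled over all 4 groups. For many fibroblast genes it is widened by the TEC arrays, of which the second read about 2 to 3 units above the first, as for Pdgfra with 7.02 and 9.80. The difference between 3' and 5' probe sets of Gapdh, a measure of RNA integrity, was 0.05 to 0.14 on COF and 0.29 to 0.30 on CSC arrays, and whether it bears on the results was not tested.

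**Figure D1:**
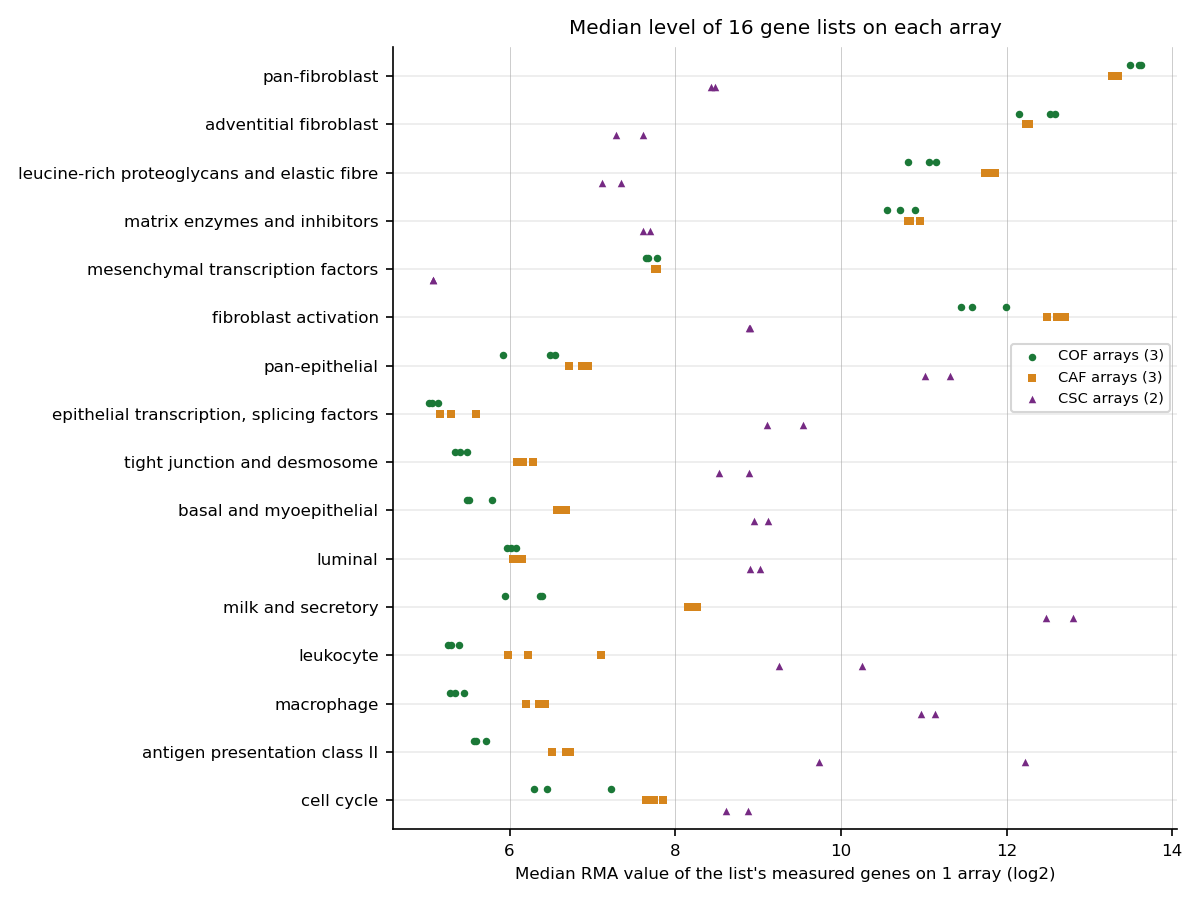
The horizontal axis gives the median RMA value (log2) of the measured genes of 16 lists on each COF (circle), CAF (square) and CSC (triangle) array. Fibroblast and matrix lists lie to the right on COF and CAF arrays, and the epithelial, milk, leukocyte and macrophage lists on the CSC arrays, with macrophage medians of 11.13 and 10.97 on CSC and 5.27 to 5.45 on COF.

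The fibroblast programme marked the COF arrays as labelled. All 19 measured pan-fibroblast genes were higher in COF, with a median difference of 4.47. Pdgfra, a receptor for platelet-derived growth factor found on most fibroblasts, read 12.40, 12.26 and 12.36 on the COF arrays and 6.55 and 6.43 on the CSC arrays. The groups lay far apart, by 5.85 ± 0.61 (SE, n = 3 and 2, limma adjusted p = 2.81e-05), or 57.8-fold. Its partner receptor Pdgfrb read 12.03, 12.24 and 12.06 against 5.82 and 5.16, a difference of 6.62 ± 0.69. Lumican (Lum), a small proteoglycan that spaces collagen fibrils, read 14.21, 14.16 and 14.18 against 8.43 and 8.56. In these bulk samples fewer cells of a type and less RNA per cell cannot be told apart.

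Some matrix genes kept a high value in the CSC samples as well. Decorin (Dcn), the most abundant proteoglycan of loose connective tissue, read 14.66, 14.65 and 14.68 on COF and 12.17 and 11.56 on CSC arrays. Its difference was therefore only 2.80 ± 0.52 (adjusted p = 0.00111), although both CSC values lay above the upper quartile of their arrays. Col1a1, the main fibrillar collagen chain, read 11.54, 12.49 and 12.05 against 9.66 and 9.20, a difference of 2.60 ± 0.67 (adjusted p = 0.00696). That call was lost without the second CSC array, at 2.36 and an adjusted p of 0.0504. Vimentin (Vim), the intermediate filament of mesenchymal cells, read 14.36 to 14.41 on COF and 12.48 to 12.52 on CSC arrays, so that both groups stood high and still did not overlap.

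**Figure D2:**
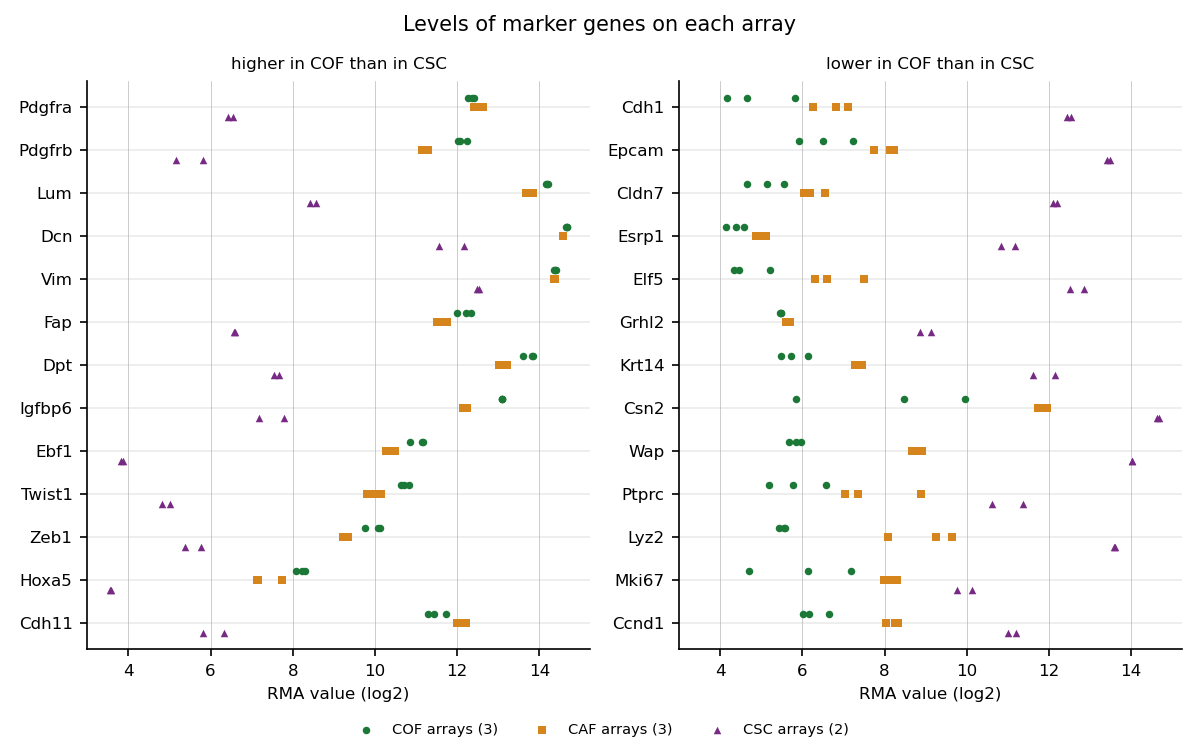
Each point is the RMA value (log2) of 1 gene on 1 COF, CAF or CSC array. In the left panel COF lie above CSC for every gene shown, and in the right panel under them, with Csn2 the most spread among COF arrays at 5.84 to 9.95.

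Genes of the adventitial fibroblast, the perivascular type taken to be common to many organs, were higher in COF for 18 of 18 measured members, with a median of 4.19. Of these Igfbp4 passed narrowly (1.145, adjusted p = 0.0466) and lost its call without any 1 of the 5 arrays. Without any 1 COF array 17 members passed. The Igfbp4 difference was 1.40 without the first CSC array and 0.89 without the second. Igfbp6, a binding protein of insulin-like growth factors, read 13.10 on each COF array and 7.80 and 7.18 on CSC arrays (5.61 ± 0.16, adjusted p = 1.66e-08). Pi16, a protease inhibitor-like surface protein that marks this type, read 12.57, 11.76 and 12.39 against 7.41 and 7.10. Dermatopontin (Dpt), which binds decorin, differed by 6.14 ± 0.63. CAF minus COF did not pass for Pi16 (0.10, adjusted p = 0.77) or Dpt (-0.66, adjusted p = 0.43). Igfbp6 was lower in CAF than in COF by a small step, with a CAF minus COF difference of -0.91 (adjusted p = 0.0013).

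Of 17 measured genes of the fibroblast activation list, 11 were higher in COF, none was lower and 6 did not pass, with a median of 2.05 against a median CAF minus CSC of 3.64. Fap, a surface protease used as a marker of activated fibroblasts, read 12.34, 11.99 and 12.21 on control fibroblasts and 6.58 and 6.60 on CSC arrays. Its difference was 5.59 ± 0.49 (adjusted p = 1.06e-05). Tumour fibroblasts read 11.52 to 11.76, under each COF value, and CAF minus COF did not pass (-0.55, adjusted p = 0.40). Thrombospondin 2 (Thbs2), a matrix protein, was higher by 5.80 ± 0.64, and versican (Vcan), a matrix proteoglycan, by 3.93 ± 0.25.

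The arrays of 4 of the 17 measured members of this list overlapped between COF and CSC. Over all 12394 genes, 9998 had arrays that did not overlap, so some overlap is common. Acta2, the smooth muscle actin of myofibroblasts and of myoepithelial cells, read 7.28, 10.53 and 9.08 on COF and 10.35 and 9.26 on CSC arrays. The difference of -0.84 ± 0.75 did not pass (adjusted p = 0.343). Without COF array 2 it was -1.62 and passed (adjusted p = 0.0312), and its probe sets disagreed, with 0.65 once sets of the _x_at and _s_at kind were left out. Tenascin C (Tnc), a matrix protein of wounds and tumours, read 8.06, 11.27 and 9.89 against 9.49 and 9.08 (0.46 ± 0.90, adjusted p = 0.668). Tagln, an actin-binding protein, differed by 0.52 ± 0.60 and Inhba, an activin subunit, by 0.05 ± 0.51, neither passing. In all 4 genes COF array 2 read highest of the COF arrays, and CAF lay above COF, with CAF minus COF of 3.08 for Acta2 (adjusted p = 0.0070), 3.18 for Tnc (adjusted p = 0.014), 3.12 for Tagln (adjusted p = 0.0021) and 2.50 for Inhba (adjusted p = 0.0029).

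Proteoglycans and elastic fibre genes were higher in COF for 23 of 25 members, with a median of 3.84, and 1 was lower. Osteoglycin (Ogn) read 13.48, 13.12 and 13.43 on COF and 6.13 and 6.03 on CSC arrays, among the greatest differences of all genes at 7.26 ± 0.79. Keratocan (Kera), a proteoglycan best known from the cornea, read 8.57, 9.21 and 8.75 against 3.76 on both CSC arrays. Keratocan was also lower in tumour fibroblasts, with a CAF minus COF of -2.62 (adjusted p = 5.3e-05). The member lower in COF was Ltbp2, a latent TGF-beta binding protein family member, which is described with the tumour fibroblast genes below.

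Enzymes that cut or process the matrix followed, with 23 of 29 higher, 3 lower and a median of 3.11. Pcolce2, an enhancer of procollagen processing, had the greatest positive difference once predicted and unnamed genes were left out. It read 13.23, 12.33 and 13.02 on COF and 5.62 and 5.55 on CSC arrays (7.27 ± 0.65, adjusted p = 1.18e-05), with CAF at 11.66 to 11.90. The gelatinase Mmp2 differed by 5.57 ± 0.58 and the collagen-degrading cathepsin Ctsk by 5.69 ± 0.48. Mmp11, or stromelysin 3, read 9.95, 7.52 and 9.48 against 4.58 and 4.71, all COF values above the CSC values though COF array 2 stood about 2 units below the others. The 3 lower members were Mmp12, the macrophage elastase, at -3.41 ± 0.42, Mmp9, the gelatinase of leukocytes, at -1.50 ± 0.42, and Mmp7, or matrilysin, at -0.97 ± 0.10. Mmp9 lost its call without the first CSC array (-0.99, adjusted p = 0.103).

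Collagens and laminins differed in both directions. Of 32 collagen chains, 19 were higher in COF, 5 were lower and 8 did not pass, with a median of 1.85. The chains of types V and VI, which join and surround the main fibrils, differed by 4.12 to 5.25. The lower chains were Col17a1, the hemidesmosome collagen of basal epithelium, Col4a6, a basement membrane chain, and the 3 chains of type IX, Col9a1, Col9a2 and Col9a3. Col17a1 read 4.18, 4.0 and 4.12 on COF, all dim, and 7.83 and 7.65 on CSC arrays, a difference of -3.64 ± 0.19 (adjusted p = 4.49e-07). Col13a1, a transmembrane collagen, went the other way, with 8.52, 9.98 and 9.03 against 3.87 and 3.86 (5.31 ± 0.35, adjusted p = 1.62e-06).

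Among 16 laminin and basement membrane genes, 10 were higher, 5 lower and 1 did not pass, with a median of 2.30. The laminin chain Lama2, made by mesenchymal and muscle cells, read 12.60, 12.83 and 12.70 on COF and 6.66 and 6.41 on CSC arrays (6.18 ± 0.36, adjusted p = 7.81e-07). Lama3 and Lamb3, chains of the laminin that anchors epithelium, showed the opposite order. Lama3 read 4.66, 4.51 and 4.80 against 9.04 and 8.34, and Lamb3 4.73, 4.80 and 4.81 against 9.11 and 8.95. Every COF value of both chains was dim. Lama2 was also lower in tumour fibroblasts, at 10.54 to 10.61 (CAF minus COF -2.14, adjusted p = 0.0011), while Lama3 and Lamb3 read 4.72 to 5.23 there.

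The complement genes split between the classical pathway's starter subunits. Of 15 measured, 7 were higher in COF and 6 lower. The proteases C1ra and C1s1 and their inhibitor Serping1 were higher by 4.86 ± 0.53, 4.74 and 4.13. The 3 chains of C1q, which macrophages make, were lower. C1qa read 4.94, 5.49 and 5.24 on COF and 12.79 and 12.52 on CSC arrays, a difference of -7.43 ± 0.23 (adjusted p = 2.72e-08). Factor B (Cfb), of the alternative pathway, did not separate the groups at 0.26 ± 0.41 (adjusted p = 0.587), and was higher in CAF than in COF by 2.90 (adjusted p = 4.6e-04).

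**Figure D3:**
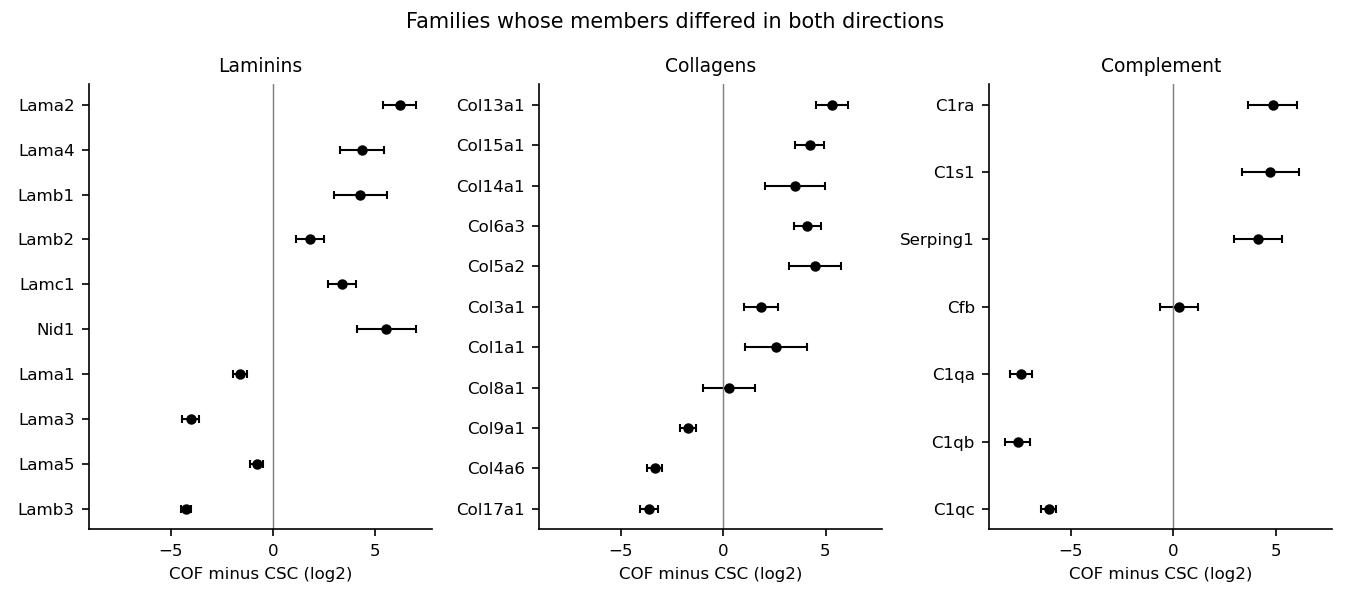
Points give the difference COF minus CSC (log2) of laminin, collagen and complement genes, and bars its 95% interval from limma. Lama2, Col13a1 and C1ra lie to the right of 0 and Lamb3, Col17a1 and C1qb to the left, while the intervals of Cfb and Col8a1 contain 0.

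Transcription factors of mesenchymal cells were higher in COF for 28 of 30 members, with 1 lower and a median of 3.57. Ebf1, a factor of B cells, adipocyte precursors and fibroblasts, read 11.17, 10.85 and 11.14 on COF and 3.82 and 3.86 on CSC arrays. Both CSC values were dim, and the difference was 7.21 ± 0.32 (adjusted p = 1.54e-07). Twist1, a mesoderm factor, read 10.83, 10.62 and 10.72 against 5.01 and 4.82. Zeb1, a repressor of epithelial genes, read 10.13, 9.75 and 10.08 against 5.76 and 5.38 (4.42 ± 0.15, adjusted p = 3.43e-08).

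The other repressors of that kind differed less. Zeb2 was higher by 2.11 ± 0.19, with CSC values of 8.94 and 8.58 above the upper quartile of all genes on one CSC array and just under it on the other. Snai1 was higher by 2.03 ± 0.21. Snai2, which basal epithelial cells also make, read 7.48, 7.74 and 7.57 on COF and 8.06 and 7.17 on CSC arrays, so that the CSC values lay on both sides of the COF values (-0.02 ± 0.46, adjusted p = 0.974, 95% interval -1.07 to 1.03).

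Hox genes, which carry the record of position along the body axis, were higher in COF for 21 of 24 members and lower for none, with a median of 0.76. Hoxa5 read 8.31, 8.07 and 8.23 on COF and 3.55 and 3.58 on CSC arrays (4.64 ± 0.18, adjusted p = 7.4e-08). Hoxc8 differed by 4.29 ± 0.53. Most other members differed by less than 1.5, and both Hoxa5 and Hoxc8 were dim on the CSC arrays.

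Epithelial transcription and splicing factors showed the reverse, with 22 of 23 lower in COF and a median of -3.43. Elf5, the factor of the alveolar cells that make milk, read 4.45, 5.20 and 4.33 on COF and 12.52 and 12.84 on CSC arrays. That was a difference of -8.02 ± 0.35 (adjusted p = 1.45e-07), with each COF value dim. Esrp1, which directs epithelial splicing, read 4.37, 4.15 and 4.57 against 10.84 and 11.16. Grhl2, which keeps epithelial genes on, read 5.45 to 5.48 on COF and 8.85 and 9.12 on CSC arrays. Spdef was the single member higher in COF, by 0.46, and it did not pass without the first CSC array (0.37, adjusted p = 0.0524).

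Because Zeb1, Zeb2 and Snai1, repressors that bind the E-box CACCTG, were higher in COF and the epithelial genes lower, that sequence was looked for in the promoters. RefSeq start sites of build GRCm38.p6 were at hand for 9888 of the 12394 genes. The 250 bases before each start were searched for CACCTG on both strands, which reads CAGGTG on the other strand, and no other motif overlaps it in the search. A gene counted when the window of any of its listed starts held the motif. Of 21 pan-epithelial genes 14 had a window, and Cdh1 was not among them. The motif was present for 11 of the 14 (78.6%), against 19.4% of all genes tested with a window. The share was 35.3% of 17 tight junction and desmosome genes and 38.5% of 13 epithelial factors. Among the pan-fibroblast genes it was found for 0 of 12, and among mesenchymal factors for 1 of 18 (5.56%), namely Snai1 itself. It was found for 2 of 12 adventitial fibroblast genes (16.7%), near the share of all genes, and for 1 of 14 macrophage genes (7.14%), which were also lower in COF. The median GC content of the windows was 62% for the pan-epithelial and 55.2% for the pan-fibroblast genes, against 58.4% for all genes tested. A match is a description of the letters and not a bound site. The lists were chosen with earlier results of these data known, and a gene with more listed starts had more windows to count. Whether Zeb1, Zeb2 or Snai1 act on any of these genes was not tested.

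The windows of 5 genes are shown because they hold the motif and their genes were lower in COF, with CACCTG or CAGGTG in capitals, 5' to 3' on the gene's strand, ending at the base before the start. Epcam lies at chr17:87635729-87635978 on the plus strand and holds it 187 and 19 bases before the start. Spint2, a protease inhibitor of epithelial surfaces, lies at chr7:29281978-29282227 on the minus strand, and the motif stands at 74, 55 and 9 bases. Crb3 lies at chr17:57061951-57062200 on the plus strand, with 3 copies. Cldn4 lies at chr5:134946935-134947184 on the minus strand, with 1 copy 14 bases before the start. Elf5 lies at chr2:103411848-103412097 on the plus strand, with 3 copies at 155, 112 and 11 bases.
Epcam: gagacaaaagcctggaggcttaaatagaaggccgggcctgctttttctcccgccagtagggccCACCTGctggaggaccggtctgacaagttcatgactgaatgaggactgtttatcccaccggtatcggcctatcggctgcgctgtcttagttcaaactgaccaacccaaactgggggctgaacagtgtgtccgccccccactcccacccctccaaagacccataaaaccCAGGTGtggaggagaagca
Spint2: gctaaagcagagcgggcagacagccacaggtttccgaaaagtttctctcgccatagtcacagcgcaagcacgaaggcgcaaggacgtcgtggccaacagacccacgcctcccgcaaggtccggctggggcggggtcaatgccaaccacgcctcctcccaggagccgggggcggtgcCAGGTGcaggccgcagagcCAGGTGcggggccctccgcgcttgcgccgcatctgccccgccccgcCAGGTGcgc
Crb3: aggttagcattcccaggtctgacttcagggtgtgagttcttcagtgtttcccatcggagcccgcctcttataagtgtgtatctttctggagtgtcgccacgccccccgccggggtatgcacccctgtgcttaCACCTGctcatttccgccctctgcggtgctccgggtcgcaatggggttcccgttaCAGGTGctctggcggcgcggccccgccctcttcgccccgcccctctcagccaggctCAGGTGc
Cldn4: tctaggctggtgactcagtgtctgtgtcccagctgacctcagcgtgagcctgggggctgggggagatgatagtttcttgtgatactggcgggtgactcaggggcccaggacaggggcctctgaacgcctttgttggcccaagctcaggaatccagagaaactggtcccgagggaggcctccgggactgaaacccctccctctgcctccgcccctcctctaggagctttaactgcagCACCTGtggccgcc
Elf5: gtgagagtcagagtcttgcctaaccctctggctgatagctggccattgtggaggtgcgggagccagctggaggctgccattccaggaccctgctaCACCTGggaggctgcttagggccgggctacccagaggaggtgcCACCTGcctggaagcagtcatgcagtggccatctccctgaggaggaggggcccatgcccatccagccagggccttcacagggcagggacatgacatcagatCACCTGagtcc
The differences of these 5 genes ran from -8.02 for Elf5 to -0.86 ± 0.14 for Crb3, a polarity protein, with Spint2 at -5.27 ± 0.11. Crb3 and Elf5 both hold 3 copies, so the number of copies did not order them. Crb3 and Elf5 each have another listed start, and the window with the most copies is shown. The other window of Elf5 holds no copy.

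The pan-epithelial genes were lower in COF for 21 of 21 members, with a median of -4.82. E-cadherin (Cdh1), the adhesion molecule of epithelium, read 4.15, 5.83 and 4.64 on COF and 12.53 and 12.45 on CSC arrays, a difference of -7.61 ± 0.44 (adjusted p = 7.74e-07). Epcam, a surface protein of epithelial cells, read 5.92, 7.22 and 6.49 against 13.48 and 13.41. Claudin 7 (Cldn7) read 4.66, 5.56 and 5.13 against 12.21 and 12.10. In each of these 3 genes COF array 2 was the highest of the COF arrays, and it still lay at least 6 units under the CSC arrays. Tumour fibroblasts read between 6.04 and 8.23 for the 3 genes, and CAF minus COF passed for each, at 1.85 (adjusted p = 0.0063), 1.49 (adjusted p = 0.0053) and 1.14 (adjusted p = 0.0042).

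Keratins of both epithelial layers were high on the CSC arrays. Krt8 and Krt18, of luminal cells, differed by -6.23 ± 0.39 and -6.46 ± 0.43. Krt5 and Krt14, of basal cells, differed by -4.64 ± 0.26 and -6.09 ± 0.28. Krt14 read 5.48, 6.12 and 5.72 on COF and 12.13 and 11.60 on CSC arrays. The basal factor Trp63 read 3.82, 4.11 and 4.30 against 10.15 and 9.67, all COF values being dim. Of 18 luminal genes 11 were lower and 5 higher, and of 23 basal genes 15 were lower and 3 higher. Among the exceptions, Mme, a peptidase known from myoepithelial cells and also from fibroblasts, read 10.34, 10.74 and 10.44 on COF and 4.16 and 5.06 on CSC arrays (5.89 ± 0.47).

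Milk genes gave the lowest list median, -6.42, with 17 of 18 lower in COF and Xdh not passing. Whey acidic protein (Wap), whose promoter drives the Cre in the tumours, read 5.96, 5.66 and 5.85 on COF and 14.02 on both CSC arrays (-8.20 ± 0.14, adjusted p = 7.21e-09), or 293-fold less. Beta-casein (Csn2) read 5.84, 9.95 and 8.47 against 14.62 and 14.68 (-6.56 ± 0.90, adjusted p = 1.62e-04). The COF arrays spread over 4 units for Csn2 and over 0.3 for Wap. Among tumour fibroblasts Wap read 8.67 to 8.91, above every COF value, with a CAF minus COF of 2.96 (adjusted p = 5.7e-06).

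Junction genes were lower in COF for 22 of 27 members, with a median of -3.42. Occludin (Ocln) read 3.59, 3.58 and 3.46 against 9.29 and 9.08. The 4 members higher in COF were claudins, of which Cldn10 showed the greatest difference at 2.27 ± 0.12 and Cldn5, an endothelial claudin, the smallest at 0.40. The call for Cldn5 was lost without any 1 of 4 arrays, COF 2, COF 3, CSC 1 or CSC 2. Of 17 cadherin genes 8 were higher and 6 lower, against 35.8% and 33.7% of all genes. Cdh11, the mesenchymal cadherin, read 11.30, 11.72 and 11.43 on COF and 6.33 and 5.83 on CSC arrays. N-cadherin (Cdh2) read 5.77, 6.04 and 5.95 against 3.56 and 3.71 (2.29 ± 0.49), with CAF higher still at 8.31 to 8.52. Beta-catenin (Ctnnb1), which links cadherins to actin and carries Wnt signals, read 12.17 to 12.20 on COF and 12.77 and 12.79 on CSC arrays, a small and separate step of -0.59 ± 0.09.

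Surface markers used to sort stem cells did not run one way. Of 19 such markers and aldehyde dehydrogenases, 10 were higher in COF and 8 lower, against 35.8% and 33.7% of all genes. Cd24a read 7.77, 7.57 and 7.65 on COF and 13.54 and 13.65 on CSC arrays, and the integrin chain Itga6 5.52, 6.40 and 5.69 against 11.31 and 11.27. Cd44, the hyaluronan receptor, was higher in COF by 1.32 ± 0.13, with both groups above 11.6. The aldehyde dehydrogenases Aldh1a1 and Aldh1a3 were higher in COF, by 4.70 ± 0.40 and 3.31 ± 0.36, and so was Thy1 by 4.71 ± 0.70. Prominin 1 (Prom1) and Kit were lower, by -5.68 ± 0.18 and -5.41 ± 0.35. Integrins were higher for 9 of 19 and lower for 7, against the same shares. Itga5, the fibronectin receptor chain, differed by 2.38 ± 0.18 and Itgb4, the hemidesmosome chain, by -3.23 ± 0.14.

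Genes of blood cells were high on the CSC arrays. All 15 leukocyte genes and all 20 macrophage genes were lower in COF, with medians of -4.71 and -5.53, and the leukocyte list's median level was 10.25 and 9.25 on CSC and 5.25 to 5.39 on COF arrays. Ptprc, or CD45, the antigen shared by white blood cells, read 5.19, 6.57 and 5.78 on COF and 11.36 and 10.61 on CSC arrays. Adgre1, or F4/80, of mouse macrophages, read 5.31 to 5.48 against 9.98 and 9.64. Lysozyme 1 (Lyz1) had the most negative difference once predicted and unnamed genes were left out. It read 4.73, 4.90 and 4.86 against 14.18 and 14.12 (-9.32 ± 0.34, adjusted p = 5.04e-08). Its probe set is of the _x_at kind. The related gene Lyz2 read 5.42 to 5.57 on COF and 13.61 and 13.58 on CSC arrays, and whether the Lyz1 set also reads Lyz2 was not tested. Markers of another cell type thus moved with the comparison, and their part in the other differences was not tested.

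Not every blood lineage took part. Of 18 lymphocyte genes 12 did not pass, 5 were higher and 1 lower, and without the second CSC array 3 were higher and 2 lower. Of 15 granulocyte and mast cell genes 10 were lower in COF, among them S100a8 at -8.64 ± 0.27, an alarmin of neutrophils. Class II antigen presentation genes were lower for 7 of 8. The class II chain H2-Aa read 13.22 and 12.90 on the CSC arrays, close together, but H2-Eb1 read 12.42 and 8.15, so that the CSC arrays differed from each other by over 4 units for that gene.

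Markers of other stromal cells were mixed. The endothelial list had 12 of 20 genes higher, 2 lower and a median of 0.39. Pecam1 (0.38 ± 0.29, adjusted p = 0.262) and Vwf (0.15), markers of endothelial cells at large, did not pass. Cdh5, the cadherin of endothelial junctions, did pass at 1.15 ± 0.30 (adjusted p = 0.00684), as did Kdr, a receptor of vascular endothelial growth factor, at 1.62, the junction protein Esam at 1.74 and Plvap, of endothelial diaphragms, at 3.79 ± 0.12. The angiopoietin receptor Tek read 10.28, 9.04 and 10.01 on COF and 3.68 and 3.18 on CSC arrays, the greatest difference of that list at 6.34 ± 0.51. Lyve1, of lymphatic endothelium and of some macrophages, was lower at -4.11 ± 0.43. Of 14 pericyte and smooth muscle genes 7 did not pass, 4 were higher and 3 lower.

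Among 16 adipocyte genes 9 were higher, 4 lower and 3 did not pass. Fabp4, a fatty acid carrier, read 12.11, 12.54 and 12.20 on COF and 6.75 and 7.50 on CSC arrays. Pparg, the master factor of fat cells, read 8.84, 8.41 and 8.58 against 5.35 and 5.02 (3.43 ± 0.18, adjusted p = 3.65e-07), and the hormone adiponectin (Adipoq) 6.58, 5.20 and 6.45 against 3.03 and 2.98. Lipe, the hormone-sensitive lipase, was lower at -3.11 ± 0.14. Pparg was also lower in tumour fibroblasts than in COF, with a CAF minus COF of -1.87 (adjusted p = 6.8e-05). The level of Adipoq was dim on COF array 2 and on both CSC arrays.

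Cell division genes were lower in COF for 23 of 30 members, with a median of -1.59. Mki67, a protein of dividing cells, read 4.71, 7.17 and 6.14 on COF and 9.77 and 10.12 on CSC arrays (-3.93 ± 0.55, adjusted p = 1.79e-04). Topoisomerase Top2a read 4.78, 7.57 and 6.47 against 9.02 and 9.52. For both genes COF array 2 was highest and COF array 1 lowest, and the groups did not overlap. The G1 cyclins went opposite ways. Cyclin D1 (Ccnd1) read 6.17, 6.64 and 6.0 against 11.01 and 11.19 (-4.83 ± 0.21, adjusted p = 1.4e-07). Cyclin D2 (Ccnd2) was higher in COF by 1.32 ± 0.38, a call that was lost without the second CSC array (0.62, adjusted p = 0.104).

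Metabolic lists leaned to the CSC arrays. Of 18 genes of fatty acid and cholesterol synthesis 12 were lower in COF, 2 higher and 4 did not pass, with a median of -1.01. The desaturase Scd1 read 10.26, 9.99 and 10.19 on COF and 13.41 and 13.31 on CSC arrays, and its regulator Srebf1 was lower at -2.74 ± 0.12. Of 21 glycolysis and hypoxia genes 13 were lower and 5 higher. Pyruvate kinase (Pkm) differed by -2.36 ± 0.16, while hexokinase 2 (Hk2), the first step of the same path, was higher in COF by 2.65 ± 0.19.

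Hedgehog genes were higher in COF for 13 of 17 measured members and lower for none, with a median of 1.33. Hedgehog ligands bind Ptch1, which releases Smo and so lets the Gli factors act. The ligand Shh read 4.15 to 4.19 on COF and 4.35 and 4.13 on CSC arrays, dim in both groups (-0.07 ± 0.10, adjusted p = 0.526). The factor Gli2 read 8.88, 8.84 and 8.87 against 6.26 and 5.86, and Gli1, which is also a target of the pathway, 6.45, 6.44 and 6.49 against 5.20 and 5.03 (1.34 ± 0.25, adjusted p = 9.76e-04). Ptch1, likewise a target, read 7.37, 7.54 and 7.46 on COF and 8.05 and 8.44 on CSC arrays, and its difference of -0.79 ± 0.33 did not pass (adjusted p = 0.0559). The COF values of Ptch1 lay below both CSC values, and its call changed in 4 of the 17 other settings. Co-receptors were among the greatest differences, with Gas1 at 3.55 ± 0.52 and the glypican Gpc3 at 4.48 ± 0.52. In CAF both targets stood above COF, Gli1 by 2.06 (adjusted p = 1.9e-04) and Ptch1 by 2.66 (adjusted p = 2.2e-04).

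Wnt ligands were mixed. Of 21 ligands and R-spondins 10 were higher in COF, 2 lower and 9 did not pass, with a median of 0.46. Wnt2 read 9.38, 9.91 and 9.55 on COF and 5.25 and 4.96 on CSC arrays, and Rspo1, which amplifies Wnt signals, 6.34, 7.65 and 6.51 against 3.85 and 4.17. Rspo1 was lower in CAF, at 4.41 to 4.59, than on any COF array (CAF minus COF -2.35, adjusted p = 4.5e-04). The lower ligands were Wnt10a at -3.38 ± 0.20 and Wnt5b at -2.46 ± 0.21.

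Of 11 secreted Wnt antagonists 8 were higher and 3 lower, with a median of 1.20. Sfrp2 read 11.71, 11.50 and 11.63 on COF and 7.08 and 6.64 on CSC arrays (4.75 ± 0.61). Wif1, which binds Wnt ligands, showed the opposite order, with 3.12, 4.22 and 3.45 against 10.04 and 8.72 (-5.79 ± 0.56, adjusted p = 1.83e-05). Tumour fibroblasts read 9.09, 9.35 and 9.08 for Wif1, near the CSC arrays and far above COF, by 5.58 in CAF minus COF (adjusted p = 9.0e-05).

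Targets of beta-catenin signalling were higher for 6 of 17, lower for 7 and did not pass for 4. These counts are near the shares of all genes, 35.8% and 33.7%, and are not read as a trait of the list. The same holds for the Notch counts given below. Axin2, the feedback target in most tissues, read 7.03, 6.94 and 7.07 on COF and 8.0 and 8.93 on CSC arrays (-1.45 ± 0.22, adjusted p = 3.38e-04). Rnf43 was lower by -3.55 ± 0.21 and Tnfrsf19 by -3.62 ± 0.39. Lgr5, the R-spondin receptor, was higher in COF by 1.0 ± 0.19 and Apcdd1 by 2.28. Of 18 Notch genes 7 were higher and 6 lower, and without the first CSC array 4 were higher. Notch1 read 9.65, 9.66 and 9.54 on COF and 9.65 and 9.86 on CSC arrays, which did not pass (-0.14 ± 0.14, adjusted p = 0.392), whereas CAF read 7.35 to 7.58 and lay below COF by -2.18 in CAF minus COF (adjusted p = 1.4e-05).

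The TGF-beta, BMP and activin list had 21 of 35 genes higher and 3 lower, with a median of 0.67. Gdf10, a BMP family ligand, read 11.04, 10.71 and 10.88 on COF and 5.61 and 5.20 on CSC arrays (5.47 ± 0.53). Bmp4 read 9.11, 8.29 and 8.97 against 6.50 and 6.11 and was lower in tumour fibroblasts, at 6.62 to 6.97. The activin subunit Inhbb was lower in COF, with 6.71, 7.11 and 6.77 against 10.25 and 10.53 (-3.53 ± 0.15, adjusted p = 1.15e-07). The type II receptor Tgfbr2 was higher by 2.14 ± 0.19.

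Growth factor ligands and receptors were divided between the groups. Of 28 ligands 17 were higher in COF, 6 lower and 5 did not pass, and of 26 receptors 13 were higher, 7 lower and 6 did not pass. Platelet-derived growth factor chains were lower in COF while their receptors, given above, were higher. Pdgfa read 6.81, 7.40 and 6.92 on COF and 9.21 and 8.93 on CSC arrays (-2.02 ± 0.20), and Pdgfc 8.49, 8.07 and 8.30 against 10.21 and 10.76 (-2.20 ± 0.31). The epidermal growth factor receptor (Egfr) read 11.65, 11.29 and 11.51 against 7.66 and 7.60, and its ligand Tgfa 5.60 to 5.62 against 8.76 and 8.12. For these pairs the receptor was higher on the fibroblast arrays and the ligand on the CSC arrays.

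The pairs of Kit and of Csf1r with their ligands had the reverse order. The ligand Kitl was higher in COF by 1.99 ± 0.46, with 11.42, 11.23 and 11.36 against 9.49 and 9.20, and its receptor Kit read 4.22, 4.42 and 4.28 on COF and 9.07 and 10.37 on CSC arrays. The macrophage growth factor Csf1 read 12.60, 12.19 and 12.48 against 11.09 and 10.49 (1.64 ± 0.21), and its receptor Csf1r 6.34, 7.43 and 6.78 against 12.53 and 12.25. Csf1r is itself a macrophage marker, and macrophage genes were high on the CSC arrays as described. The fibroblast growth factors Fgf7 and Fgf10, whose receptor isoform is epithelial, were higher in COF by 3.28 ± 0.48 and 3.50 ± 0.14. Igf1 read 11.17, 11.21 and 11.23 on COF and 7.94 and 7.81 on CSC arrays, while its receptor Igf1r did not pass (0.55 ± 0.25, adjusted p = 0.0716).

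Hgf, the transgene of the tumour genotype, read 7.73, 8.11 and 7.87 on COF and 10.41 and 10.54 on CSC arrays, a difference of -2.57 ± 0.17 (adjusted p = 1.9e-06). Tumour fibroblasts read 7.49 to 7.71, and CAF minus COF did not pass (-0.34, adjusted p = 0.13). The arrays do not tell transgene from endogenous transcripts. Its receptor Met read 5.65, 4.91 and 5.51 on COF and 5.75 and 5.62 on CSC arrays, with one COF array dim, and did not pass (-0.33 ± 0.21, adjusted p = 0.202, 95% interval -0.81 to 0.16).

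**Figure D4:**
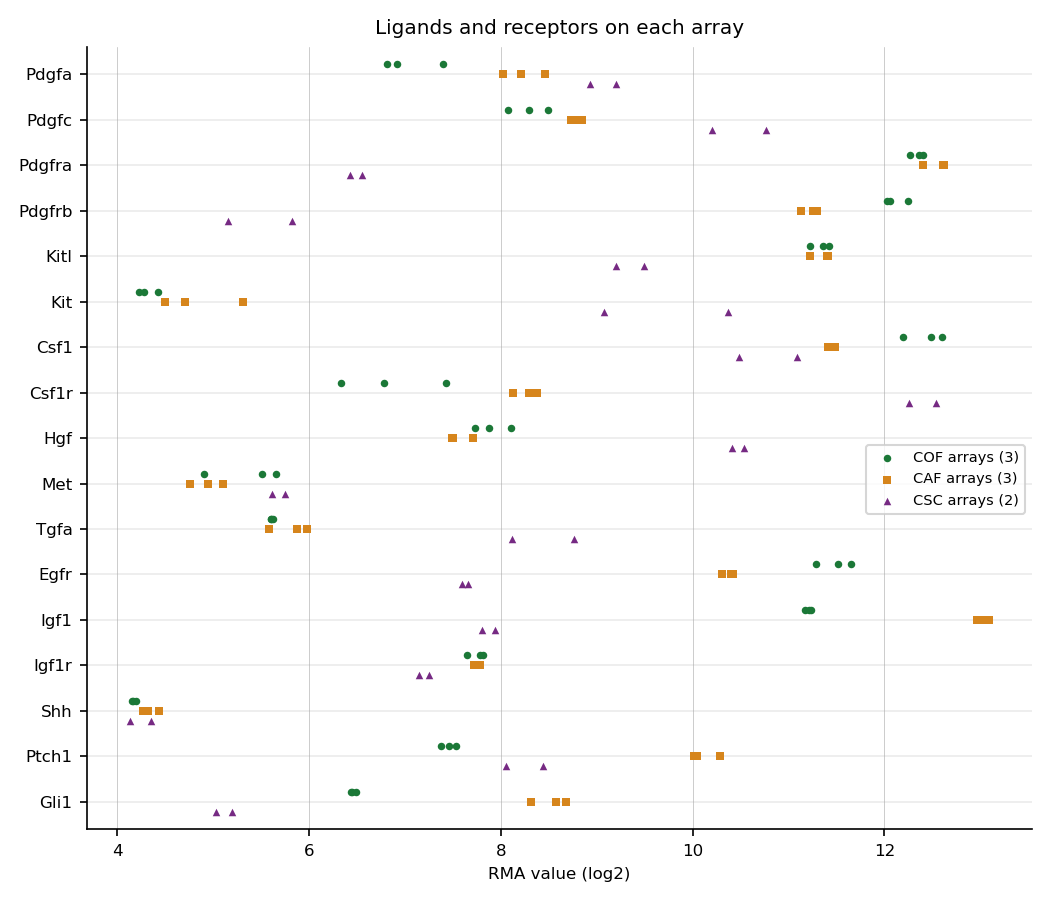
Each point is the RMA value (log2) of a ligand, receptor or pathway gene on 1 COF, CAF or CSC array. Pdgfra, Pdgfrb, Egfr, Kitl and Igf1 lie higher on COF than on CSC arrays, and Pdgfa, Tgfa, Kit, Csf1r and Hgf lower. Levels of different genes are not comparable on this scale.

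Of 28 chemokines 12 were higher in COF and 11 lower, against 35.8% and 33.7% of all genes. Ccl11, or eotaxin, read 12.99, 12.78 and 12.91 on COF and 7.15 and 7.01 on CSC arrays (5.82 ± 0.58), and Cxcl12, which retains stem cells and leukocytes, 12.52, 12.21 and 12.44 against 9.20 and 9.17. Ccl6 and Ccl3, which myeloid cells make, were lower by -7.80 ± 0.18 and -6.31 ± 0.34. Among IGF-binding proteins 4 of 8 were higher, Igfbp3 by 4.83 ± 0.59, and without any 1 COF array 3 were higher. The call lost was that of Igfbp4, which did not hold without any 1 array, as given above. Of 19 immediate-early genes 14 were higher in COF, with a median of 0.56, and Egr2 had the greatest difference at 3.34 ± 0.13. Of 17 hormone and nuclear receptors 9 were higher, Rarb by 2.80, while the vitamin D receptor (Vdr) was lower at -3.78 ± 0.22. The oestrogen receptor Esr1 read 4.58 to 4.75 on COF and 3.78 and 3.92 on CSC arrays, dim throughout. Interferon response genes were higher for 4 of 17 and lower for 5, and Schwann cell genes higher for 3 of 9 and lower for 5, Sox10 by -3.89 ± 0.12.

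Setting CAF beside these values divides the genes into classes, chosen on the values themselves and therefore given with no further test. General fibroblast genes passed as higher in COF than in CSC and had a 95% interval of CAF minus COF within -0.5 to 0.5, and 1870 genes met this rule at any size. The 10 with the greatest difference from CSC ran from Art3, an ADP-ribosyltransferase, at 3.86 ± 0.15 to Dlg4, a synaptic scaffold protein, at 2.70. Lrp1, a receptor that clears proteases and matrix proteins, read 11.74, 11.75 and 11.70 on COF, 11.70, 11.70 and 11.79 on CAF, and 8.71 and 8.45 on CSC arrays. Its CAF minus COF was 0.00 ± 0.15. Plod1, a lysyl hydroxylase of collagen, had 9.75, 9.95 and 9.72, then 9.66, 9.69 and 9.83, then 7.08 and 6.80. The other members were Gypc, Obsl1, Magee1, Jam3, Dbn1 and Gpsm1. Vim met the rule with a smaller difference from CSC (1.88 ± 0.10). Pdgfra did not meet it, with a CAF minus COF of 0.20 ± 0.54 and a 95% interval of -1.02 to 1.43. Its SD was 0.07 within COF and 0.13 within CAF, but the pooled spread also holds the TEC values of 7.02 and 9.80. Dcn likewise missed the rule, at -0.09 with an interval of -1.15 to 0.97. Missing the rule therefore does not show that a gene differs between COF and CAF, and the rule favours genes with close TEC values. Igfbp6 (-0.91) and Gsn, an actin-severing protein (-1.15 ± 0.11), were lower in CAF and outside the rule.

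Tumour fibroblast genes were higher in CAF than in both COF and CSC and not higher by 1 or more in COF than in CSC, which held for 581 genes. The greatest CAF minus COF was that of haptoglobin (Hp), a plasma protein that binds haemoglobin, with 6.31, 7.93 and 7.0 on COF, 13.72, 13.66 and 13.68 on CAF, and 11.15 and 11.17 on CSC arrays. Tnfsf11, or RANKL, the ligand through which progesterone acts on the mammary epithelium, read 3.90, 5.0 and 4.25 on COF, 9.27, 9.28 and 9.18 on CAF, and 3.68 and 3.26 on CSC arrays. COF and CSC were both dim for it, and its COF minus CSC of 0.91 passed narrowly (adjusted p = 0.0447) and was lost in 6 of the 17 other settings. Lepr, the leptin receptor, read 5.25 to 5.51 on COF, 9.76 to 10.66 on CAF, and 5.25 and 5.58 on CSC arrays, so that control fibroblasts and CSC overlapped (-0.07 ± 0.69). Col8a1, a short-chain collagen, likewise did not separate COF from CSC (0.31 ± 0.56) and read 12.31 to 12.55 on CAF. The other members were Ltbp2, Hs6st2, Reg3g, Chl1, Tnfrsf11b and Chil1.

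Control fibroblast genes were lower in CAF than in COF, passed as higher in COF than in CSC, and in CAF were less than 1 above CSC, which held for 990 genes. Col13a1, given above, had the most negative CAF minus COF of them at -4.49 ± 0.31, with CAF at 4.48 to 4.99. Tac1, the precursor of substance P, read 10.99, 12.03 and 11.40 on COF, 7.65, 7.88 and 8.79 on CAF, and 7.78 and 7.61 on CSC arrays. The amino acid transporter Slc38a4 read 6.83, 8.11 and 7.08, then 4.44, 4.87 and 4.21, then 4.66 and 4.62. Both genes thus stood apart on the control arrays, with CAF and CSC overlapping. Inmt, a methyltransferase of small amines, was also lower in CAF than in COF but stayed above CSC there (CAF minus CSC 2.34) and is outside this class, with 11.63, 10.41 and 11.37 on COF, 6.33, 6.75 and 6.34 on CAF, and 4.14 on both CSC arrays. It was named as one of the 15 greatest increases (7.0 ± 0.31, adjusted p = 1.45e-07). The other members were Cpe, Prkcb, Fgf13, Frmd4b, Irgm1, Cyp27a1 and Plekha6.

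**Figure D5:**
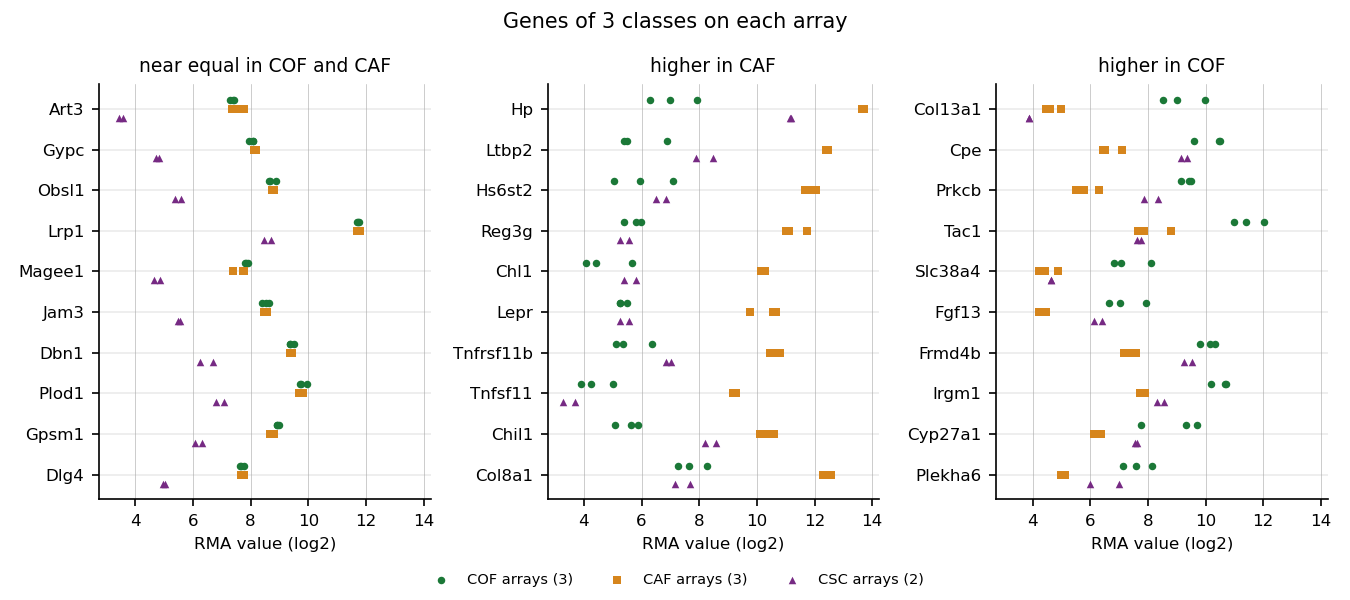
Each panel shows 10 genes of 1 class, chosen on these values, as RMA values (log2) on each COF, CAF and CSC array. In the left panel COF and CAF lie close together above CSC, in the middle panel CAF stands above both others, as for Tnfsf11 with 9.18 to 9.28, and in the right panel COF stands highest.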

How the data were processed

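RNA of sorted cells was read on single-colour Affymetrix arrays from 100 ng of total RNA, per the labels' protocols. The deposited values are on a log2 scale, and the submitters' processing notes name RMA. The RMA version, the sorting gate and whether all arrays were normalized together are not given in the sources used here. Of 22690 probe sets 20393 carry 1 gene symbol in the platform annotation, 691 several and 1606 none. The set with the highest mean over the 10 arrays stood for each of 12394 genes, of which 12370 matched a RefSeq gene.

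The 10 arrays were fitted in 4 groups with limma 3.58.1 (lmFit and eBayes) in R 4.3.3, with 6 residual and 3.02 prior degrees of freedom, two-sided, with Benjamini-Hochberg adjustment over all genes and a threshold of 0.05. The fit was tested on simulated data. With 3 and 2 arrays, their number limits the precision, and array values hold no count depth.

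Genes were named by a rule: the 15 greatest differences each way among passing genes whose arrays do not overlap, in each list up to 4 members of smallest adjusted p, with members the account of a list needs, a list of 50 genes, and 10 of each of the 3 classes, leaving out predicted and unnamed genes. The 44 lists hold 865 genes, of which 787 were measured. The members, lists and rule were chosen with earlier results of these data known, and a list is described by its counts and median, with no set test. Alternatives covered the arrays fitted, the replicate block, the prior, dim genes, the choice of probe set, scaling, array weights and leaving out each array. COF arrays 1 and 3 were also averaged, the closest pair in an earlier analysis of these data. Promoter windows were the 250 bases before RefSeq starts of GRCm38.p6.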

Additional observations from a re-analysis of the deposited data

Results flagged for a closer look

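For 10 of the named genes the difference from the CSC arrays had opposite signs in the fibroblast groups, with both passing. They are among the genes of the tumour and control classes, which were chosen on these values. The class rules required CAF minus COF and a difference from CSC to pass. The adjusted p-values of CAF minus COF below are therefore no further test. All 3 COF arrays lay on one side of both CSC arrays and all 3 CAF arrays on the other.

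Hp had a CAF minus COF of 6.61 (adjusted p = 8.4e-06), made of -4.08 for COF and 2.52 for CAF against CSC. Ltbp2 had 6.51 (adjusted p = 1.0e-04), from -2.26 and 4.25, where the first was lost without the first CSC array (-1.96, adjusted p = 0.0898). Chil1, a chitinase-like secreted protein, had 4.82 (adjusted p = 8.2e-06), from -2.86 and 1.96. In these 3 genes control fibroblasts lay below the CSC arrays and tumour fibroblasts above.

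The order was reversed in the other 7 genes. Cpe, a peptidase that trims hormones, had a CAF minus COF of -3.51 (adjusted p = 5.3e-05), from 0.95 and -2.56. Prkcb, a protein kinase C, had -3.50 (adjusted p = 2.3e-05), from 1.25 and -2.24, and Irgm1, an interferon-induced GTPase, -2.69 (adjusted p = 1.2e-05), from 2.09 and -0.61. Fgf13 had -2.83, Frmd4b -2.73, Cyp27a1 -2.65 and Plekha6 -2.58, all passing. The COF minus CSC difference of Fgf13 was 0.95, that of Frmd4b 0.70, that of Cyp27a1 1.35 and that of Plekha6 1.13. For Cpe, Fgf13, Frmd4b, Cyp27a1 and Plekha6 the COF minus CSC difference did not pass in at least 1 of the other settings.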

How the results depend on the processing

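The count of passing genes stayed within 1.5 times the main 8618 in every setting run, between 6260 without the dimmest 30% of genes and 9447 where every probe set was tested, with 7187 at an adjusted p under 0.01. Leaving out each array in turn gave 7588 to 8392 passing genes, 3908 to 4307 higher in COF, 3680 to 4085 lower, and 3679 to 4048 with a difference of at least 1. Without those dim genes 2855 were higher in COF and 3405 lower, against 4439 and 4179 in the main fit. The count higher in COF thus moved by more than 1.5 times and the split turned. This setting tests fewer genes by design, so its counts are not on the same total as the main fit. Why the split turned was not tested. Fitting only the COF and CSC arrays gave 8475, leaving out the TEC arrays 9094, and array weights 9054, whose iteration did not reach its tolerance. Those weights were 0.80, 0.39 and 40.65 for COF arrays 1, 2 and 3, so that array 3 dominated its group there. With COF arrays 1 and 3 averaged 8007 genes passed. Of 247 named genes 202 had a value in all 17 settings, and 190 of these kept their call and direction in each. Counting the others by the settings that tested them, 230 did. Without probe sets of the _x_at and _s_at kind, Acta2 changed sign to 0.65 and Fgfr2 to 0.086, each being read by another probe set there. Of 787 list genes 688 kept their call without any 1 of the 5 arrays. The median of 8 lists changed sign in some setting, among them that of the Schwann cell list, -0.81 as reported and 0.13 with the mean of probe sets.

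Replicate numbers do not pair the arrays: the deviations of same-numbered COF and CSC arrays correlated at 0.03 and 0.04. With the replicate block 8229 genes passed. Arrays give no depth, and a dim value limits how large a difference can be read.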

Other observations

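Some of the greatest differences lay outside the lists. The connexins Gjb2 and Gjb6, which form gap junctions between epithelial cells, were lower in COF. Gjb2 read 4.48, 5.22 and 4.84 on COF and 12.18 and 12.84 on CSC arrays (-7.66 ± 0.24), and Gjb6 3.46, 3.39 and 3.13 against 10.41 and 11.64. The acute phase proteins Saa1 and Saa2 were lower in COF too. Saa1 read 6.50, 6.29 and 6.32 on COF, 10.18, 10.26 and 11.41 on CAF, and 14.19 and 14.16 on CSC arrays, with no overlap between any pair of groups.

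Enzymes of small molecules were among the greatest positive differences. Akr1c14, a hydroxysteroid dehydrogenase, read 10.28, 10.17 and 10.23 on COF and 3.03 and 2.88 on CSC arrays (7.27 ± 0.32, adjusted p = 1.39e-07), and CAF lay between at 7.36 to 8.48. The surface peptidases Dpep1 and Enpep were higher in COF by 6.60 ± 0.53 and 6.34 ± 0.51. For Akr1c14, Dpep1 and Enpep CAF minus COF was -2.12 (adjusted p = 6.1e-04), -1.40 (adjusted p = 0.047) and -1.89 (adjusted p = 0.011).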
